A study of Sus scrofa with 4 samples.

Results

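The EGF receptor family examined here comprises the receptor genes EGFR, ERBB2 and ERBB3, the EGF-like ligand genes AREG, EREG, BTC, TGFA, HBEGF and EGF, and ERRFI1, which encodes an inhibitor of the receptors. These 10 genes were selected by name among the 29837 named genes of the count table. All 10 passed the filter on low counts, which left 15980 genes for the test. Poly(A) RNA had been sequenced from LGR5-high and LGR5-negative epidermal cells of 2 juvenile pigs (88R and 95R), and each pig gave 1 library per population. The pigs are separate animals, so the spread between replicates is that between animals. Both pigs carried H2B-GFP, a histone joined to a green fluorescent protein, knocked into exon 1 of 1 LGR5 allele, so that the allele reported LGR5 promoter activity. Both populations came from the same transgenic animals, which derive from clonal fibroblast lines by somatic cell nuclear transfer, and whether pigs 88R and 95R were clones or their progeny is not given in the sources used here. Epidermis and hair were separated from dermis with dispase, dissociated with trypsin and sorted on GFP after dead cells had been stained with propidium iodide. The histone fusion persists in the nucleus and is diluted by cell division, so the gate followed GFP protein and not LGR5 mRNA itself.

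EGF-like ligands are made as membrane proteins and are released by ADAM metalloproteinases. They bind EGFR, which pairs with itself or with another ERBB receptor and signals through the RAS-ERK, PI3K-AKT, STAT and PLC-gamma branches. ERBB2 has no known ligand of its own, ERBB3 binds neuregulins and has a weak kinase, and ERRFI1 (also called MIG6) is induced by EGFR signalling and blocks the receptor kinase as feedback. In skin, this system drives keratinocyte proliferation and migration, and EGFR and TGFA are required for an ordered hair coat in the mouse.

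Each library held between 30696803 and 32463362 counts, and neither population was the deeper one in both pigs. Levels are given as CPM, the counts divided by the library total after TMM scaling (trimmed mean of M-values, in edgeR) and expressed per 1e+06 counts, and a gene with 3 counts, taken as the floor, had between 0.0872 and 0.105 CPM. LGR5 itself, on which the sort rests, had 132 and 188 CPM in LGR5-high against 1.26 and 3.61 CPM in LGR5-negative. The keratinocyte markers KRT5, TP63, CDH1 and DSP were detected in all 4 libraries and were not called between the populations, while PERP and SFN were lower and EPCAM was higher in LGR5-high. Among all tested genes 22.7% were higher and 22% lower in LGR5-high, which is the share to set beside each marker count. The marker lists are short, so their counts are a description only. Of the marker lists of other cells, 8 of 10 spinous and granular genes were lower in LGR5-high. In the outer root sheath and bulge list 7 of 9 genes were higher, among them LGR5, on which the sort rests. Higher and lower genes numbered 5 and 1 of 7 for the inner root sheath and hair shaft, 4 and 0 of 7 for the sebaceous gland, 0 and 5 of 8 for melanocytes, 0 and 8 of 9 for dendritic cells, 3 and 5 of 9 for fibroblasts, 0 and 5 of 6 for endothelium, 2 and 1 of 4 for Schwann cells and nerve, 5 and 0 of 5 for smooth muscle, and 2 and 0 of 2 for Merkel cells. The T cell markers summed to at most 0.463 CPM in any library, and none was tested. In sorted bulk samples, fewer cells of a type and less RNA per cell cannot be told apart, which applies to every value that follows.

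To ask how the family differed between the sorted populations, the counts were put through the quasi-likelihood test of edgeR, with p-values adjusted over all 15980 genes (Benjamini-Hochberg). HBEGF, AREG, EGF, BTC, ERBB3 and ERRFI1 were lower in LGR5-high, TGFA was higher, and EGFR, ERBB2 and EREG were not called. Thus 6 of 10 members were lower and 1 was higher, beside 22% lower and 22.7% higher among all tested genes (44.7% in either direction). The members were chosen with earlier results of these data known, so this contrast is a description only. The median log2 fold change was -1.0 over the 10 members and 0.01 over all tested genes. None of the CPM ranges of the 10 members overlapped between the populations, which was also true of 76.6% of all tested genes. With the libraries scaled by size only, in place of TMM, the median of all tested genes moved to 0.24, and the family had 5 lower members and 1 higher member with a median of -0.78. Under that scaling 34.2% of all tested genes were higher and 14.6% lower (48.8% in either direction), so that the share of higher genes among the calls was 70.2% in place of 50.9%. With the pig as a replicate block 6 members were lower and 1 was higher, beside 27.2% and 28.5% of all tested genes (55.7% in either direction).

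**Figure D1:**
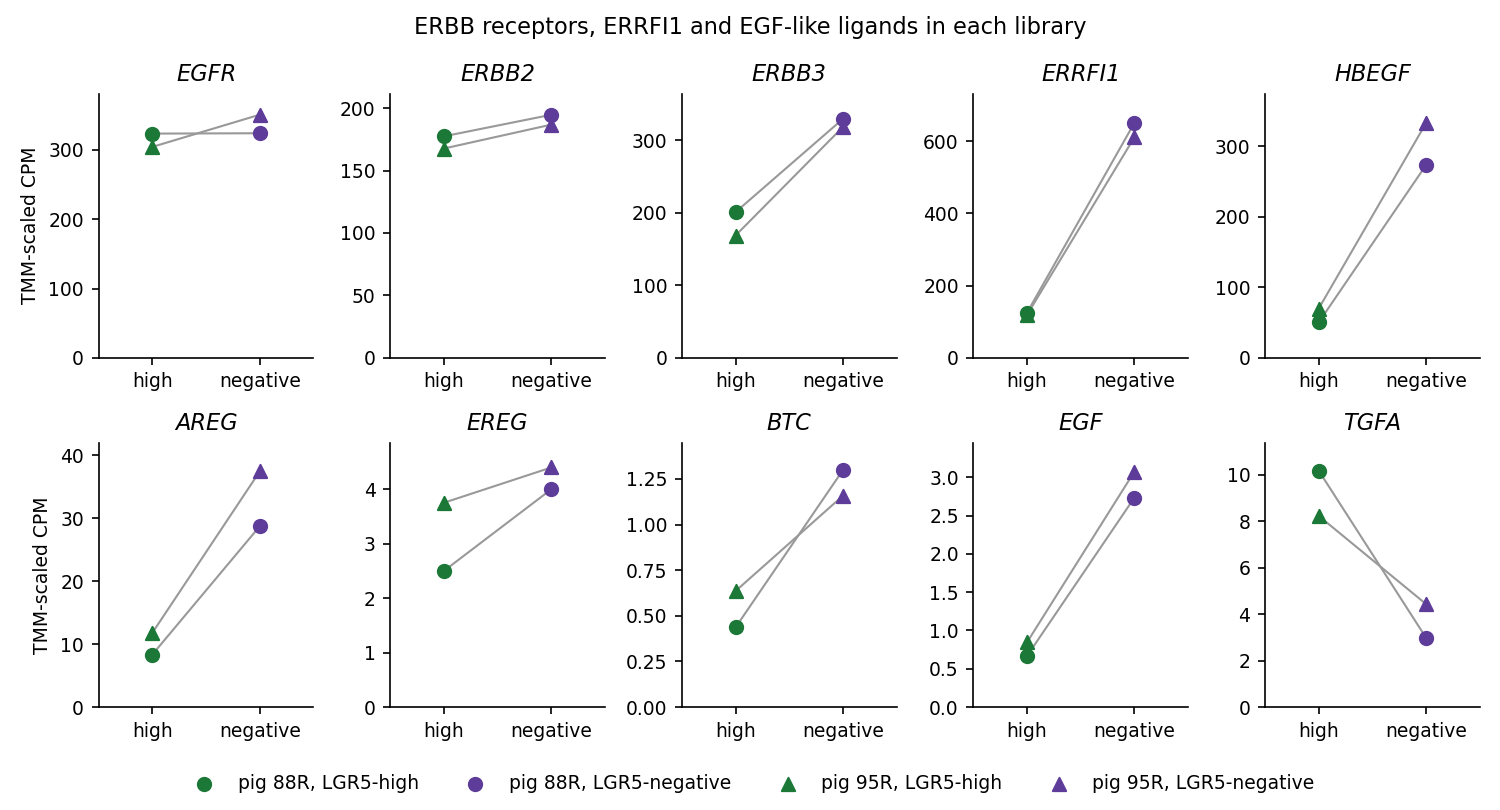
TMM-scaled CPM (y axis, from 0, with its own scale in each panel) of the 10 family members in the 4 libraries, with a line joining the LGR5-high and LGR5-negative library of each pig. The lines of EGFR and ERBB2 are nearly flat, those of ERBB3, ERRFI1, HBEGF, AREG, BTC and EGF rise towards LGR5-negative in both pigs, those of EREG rise less and those of TGFA fall.

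HBEGF encodes heparin-binding EGF-like growth factor, a ligand of EGFR and ERBB4 that promotes keratinocyte migration. It had 50.4 and 69.9 CPM in LGR5-high, and 274 and 333 CPM in LGR5-negative, with pig 88R given before pig 95R here and throughout. Each LGR5-negative library thus lay well above both LGR5-high libraries, and the mean was 5.05-fold higher in LGR5-negative. As a log2 fold change of LGR5-high over LGR5-negative, HBEGF had -2.34 ± 0.185 (SE, quasi-likelihood adjusted p = 4.01e-04), and pigs 88R and 95R taken singly gave -2.44 and -2.25. Only 2.6% of the tested genes had a lower log2 fold change.

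AREG encodes amphiregulin, an autocrine growth factor of keratinocytes. It had 8.34 and 11.8 CPM in LGR5-high, and 28.7 and 37.4 CPM in LGR5-negative, for pigs 88R and 95R. The 2 LGR5-negative values were again above both LGR5-high values, and pig 95R was above pig 88R in each population. The mean was 3.29-fold higher in LGR5-negative, and this gave AREG a log2 fold change of -1.72 ± 0.218 (SE, quasi-likelihood adjusted p = 0.00202), and it was -1.78 and -1.66 in the 2 pigs.

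EGF, the ligand that gives the family its name, was detected at low counts. Its libraries held 23 and 28 counts in LGR5-high, and 78 and 93 counts in LGR5-negative. The exact 95% Poisson intervals of these counts, which cover counting error only, reached up to 40.5 in LGR5-high and down to 61.7 in LGR5-negative, so the populations were separated by more than counting error. In CPM, EGF had 0.758 ± 0.126 (SD, n = 2 pigs) in LGR5-high and 2.91 ± 0.241 (SD, n = 2) in LGR5-negative. EGF therefore had a log2 fold change of -1.94 ± 0.301 (SE, quasi-likelihood adjusted p = 0.00424).

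BTC, which encodes betacellulin, a ligand of EGFR and ERBB4, was the member with the fewest counts. It had 15 and 21 counts in LGR5-high, and 37 and 35 counts in LGR5-negative. The exact Poisson interval of the 21 counts, from 13.0 to 32.1, overlapped that of the 35 counts, from 24.4 to 48.7. For BTC the log2 fold change was -1.19 ± 0.373 (SE, quasi-likelihood adjusted p = 0.0455), and pigs 88R and 95R taken singly gave -1.45 and -0.81. This call was lost in 10 of 15 alternative fits, including each of the 4 that left out a library, where the adjusted p-value lay between 0.0782 and 0.211. Without BTC the family had 5 lower members.

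EREG encodes epiregulin, a ligand of EGFR and ERBB4. It had 2.5 and 3.75 CPM in LGR5-high, and 4.00 and 4.40 CPM in LGR5-negative. The higher LGR5-high value, of pig 95R, was close to the LGR5-negative values. Its log2 fold change was -0.43 (95% interval -1.11 to 0.25, adjusted p = 0.254), an interval that holds both no change and a decrease of more than 1 on the log2 scale. EREG was not called in any of the 15 alternative fits.

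TGFA, which encodes transforming growth factor alpha, was the only member called higher in LGR5-high. It had 350 and 272 counts, or 10.2 and 8.23 CPM, in LGR5-high, and 85 and 134 counts, or 2.98 and 4.43 CPM, in LGR5-negative. The populations did not overlap, but the difference was larger in pig 88R than in pig 95R. On the log2 scale TGFA differed by 1.75 in pig 88R and 0.88 in pig 95R, and its log2 fold change was 1.31 ± 0.256 (SE, quasi-likelihood adjusted p = 0.00956) over both. Leaving out the LGR5-high library of pig 88R gave 1.14 with an adjusted p-value of 0.0622, so that the call rested on that library. Blocking on the pig gave TGFA a log2 fold change of 1.32 (adjusted p = 6.04e-05).

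Among the receptors, EGFR, the receptor of the ligands above, had 324 and 304 CPM in LGR5-high, and 324 and 351 CPM in LGR5-negative, for pigs 88R and 95R. The LGR5-high and LGR5-negative values of pig 88R were nearly equal, and in pig 95R the LGR5-negative value was the higher one. The log2 fold change of EGFR was -0.10 (95% interval -0.31 to 0.11, adjusted p = 0.36), and 0.12 with library size only.

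ERBB2, the dimerization partner, had 177 and 168 CPM in LGR5-high, and 195 and 187 CPM in LGR5-negative. All 4 values lay within a narrow range. For ERBB2 the log2 fold change was -0.14 (95% interval -0.34 to 0.05, adjusted p = 0.185), and 0.08 with library size only. For both receptors the interval excludes a change of 1 on the log2 scale in either direction, and the sign depended on the scaling.

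ERBB3, the neuregulin receptor, had 201 and 169 CPM in LGR5-high, and 330 and 319 CPM in LGR5-negative. It was the only receptor of the 3 that was called, and its mean was 1.75-fold higher in LGR5-negative. This corresponds to a log2 fold change of -0.81 ± 0.106 (SE, quasi-likelihood adjusted p = 0.00225), and pigs 88R and 95R taken singly gave -0.71 and -0.92. Melanocytes, which also express ERBB3, had markers that summed to 64.5 and 64.1 CPM in LGR5-high, and to 86.7 and 263 CPM in LGR5-negative. Of the 8 melanocyte markers 5 were lower in LGR5-high, as ERBB3 was, and their part in the ERBB3 difference was not tested.

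ERRFI1 had 125 and 119 CPM in LGR5-high, and 651 and 611 CPM in LGR5-negative, for pigs 88R and 95R. The pigs differed little within each population, and the mean was 5.16-fold higher in LGR5-negative. ERRFI1 thus had a log2 fold change of -2.37 ± 0.0857 (SE, quasi-likelihood adjusted p = 6.17e-05), and pigs 88R and 95R taken singly gave -2.38 and -2.35. The changes of ERRFI1 and HBEGF differed by less than the standard error of HBEGF, and in pig 88R HBEGF had the larger one. ERRFI1 was the only member called in all 15 alternative fits. The fit with a prior count of 2 changes only the fold change and keeps the reported p-values. ERRFI1 is also among the genes that the study drew as top changes from these libraries, so its call here is not independent of the study.

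**Figure D2:**
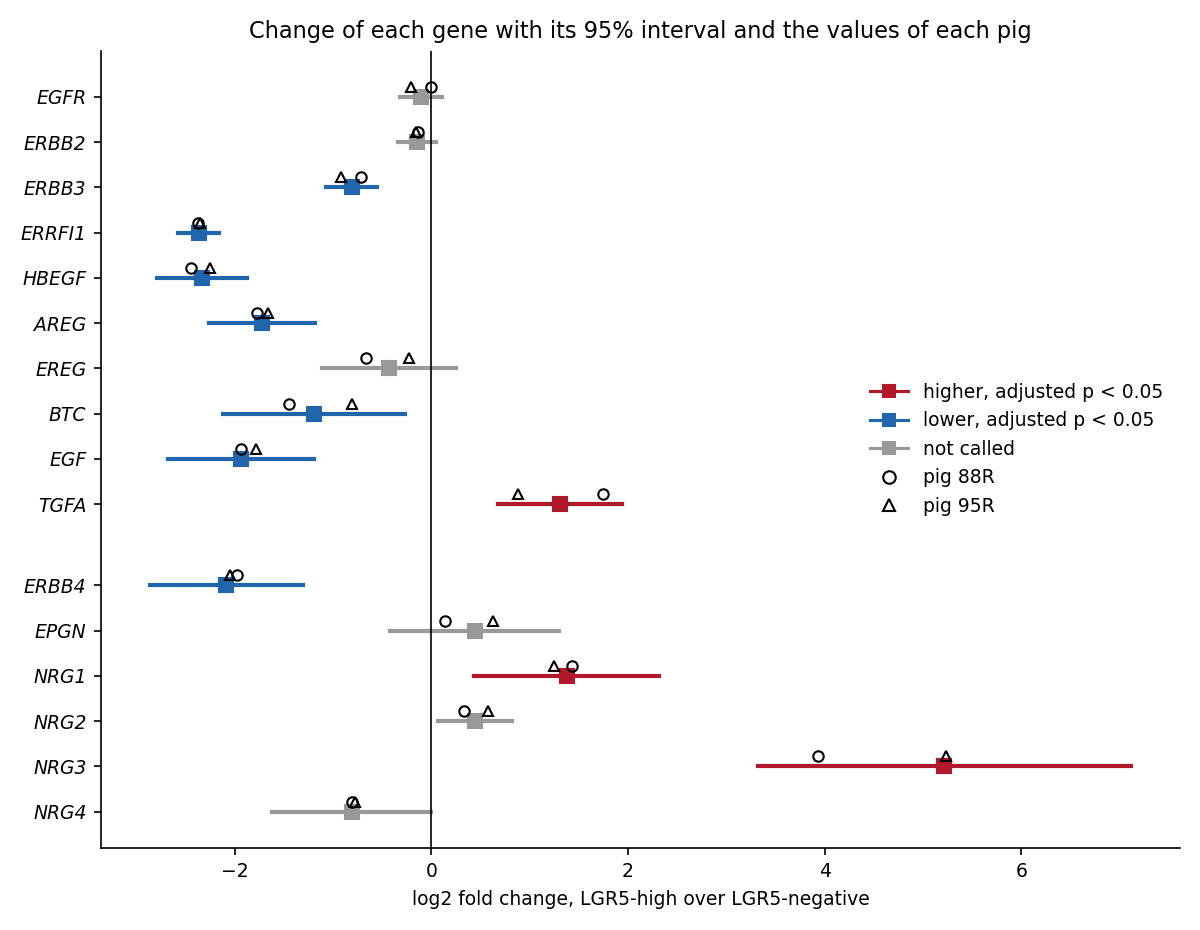
Log2 fold change, LGR5-high over LGR5-negative (x axis), of the 10 members and, below the gap, the other ERBB receptor and ligand genes, with squares and bars for the edgeR estimate and its 95% interval and open symbols for each pig. TGFA, NRG1 and NRG3 lie to the right of 0 and are called, and HBEGF, AREG, EGF, BTC, ERBB3, ERRFI1 and ERBB4 lie to the left and are called, and the position of NRG3, with 4 and 0 counts in LGR5-negative, depends on the prior count of the fit.

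The ratio of the counts of 2 genes within a library does not depend on the scaling between libraries. It can be compared between libraries, although not read as a ratio of molecules, since gene length also enters it. ERBB3 to EGFR was 0.621 and 0.554 in LGR5-high, and 1.02 and 0.908 in LGR5-negative, which is 1.64-fold higher in LGR5-negative in each pig. ERBB2 to EGFR was 0.548 and 0.551 in LGR5-high, and 0.601 and 0.532 in LGR5-negative, so these ranges overlapped. The populations were thus apart in the proportion of ERBB3 to EGFR counts and not in that of ERBB2. ERRFI1 to EGFR was 0.387 and 0.392 in LGR5-high, and 2.01 and 1.74 in LGR5-negative, and the 2 LGR5-high values nearly coincided. Among the ligands, TGFA to HBEGF was 18.5-fold higher in LGR5-high in pig 88R and 8.85-fold higher in pig 95R. TGFA to AREG was 11.8-fold higher in LGR5-high in pig 88R and 5.89-fold higher in pig 95R. TGFA counts were therefore higher relative to those of either ligand in the LGR5-high libraries of both pigs. With 2 pigs no test of these ratios was made.

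**Figure D3:**
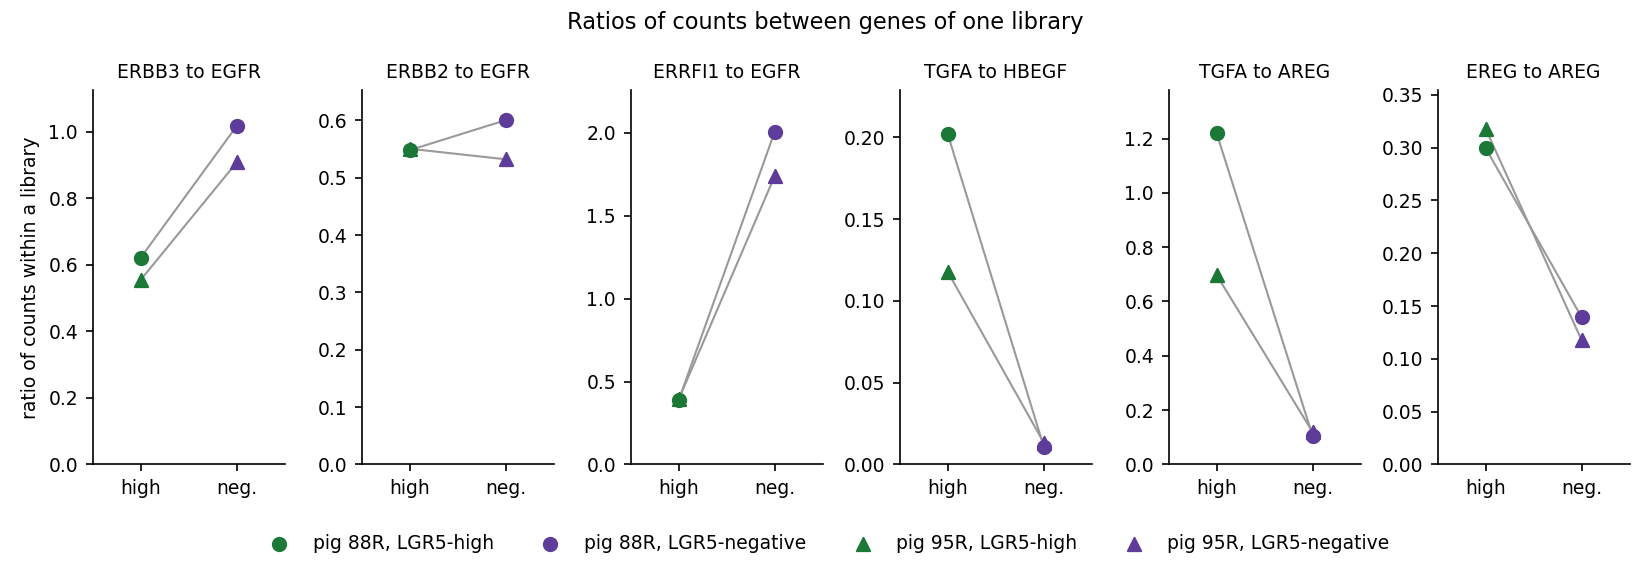
Ratio of the counts of 2 genes of the same library (y axis, from 0, with its own scale in each panel) in LGR5-high and LGR5-negative libraries, with a line for each pig. ERBB3 to EGFR and ERRFI1 to EGFR are higher in LGR5-negative, ERBB2 to EGFR overlaps, and the ratios of TGFA to HBEGF, TGFA to AREG and EREG to AREG are higher in LGR5-high.

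The genes EPGN, EREG, AREG and BTC follow each other with 0 protein-coding genes between them in RefSeq's gene order for the assembly Sscrofa11.1. These 4 neighbouring ligand genes did not share a call, since AREG and BTC were lower and EREG and EPGN were not called. EREG to AREG was 0.3 and 0.318 in LGR5-high, and 0.139 and 0.117 in LGR5-negative. EPGN to AREG was 3.79-fold higher in LGR5-high in pig 88R and 4.94-fold higher in pig 95R. BTC to AREG was 1.16-fold and 1.74-fold higher in LGR5-high in pigs 88R and 95R. AREG counts were thus lower relative to EREG and EPGN in both LGR5-high libraries, and the difference between the neighbours was not tested. The BTC ratio went the same way but rests on between 15 and 37 BTC counts in a library. NRG2 and HBEGF lie on the same chromosome with 5 protein-coding genes between them, and NRG2 to HBEGF was 6.85-fold and 7.11-fold higher in LGR5-high in pigs 88R and 95R. Reads of overlapping genes can be miscounted where the strand is not used. Overlap was taken here from the start and end of each gene, and whether exons overlap was not examined. Only EGFR and TGFA among the 10 members overlap another annotated gene, a long noncoding RNA with between 45 and 83 counts for EGFR and with at most 1 count for TGFA. EPGN overlaps the protein-coding gene MTHFD2L, which had between 54 and 94 counts against between 94 and 223 for EPGN, so its values and ratios are uncertain.

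Of the remaining ERBB receptor and ligand genes, which are no members of the selection, 2 of 6 were higher and 1 was lower in LGR5-high, beside 22.7% higher and 22% lower among all tested genes. ERBB4, a receptor of neuregulins and of several EGF-like ligands, had 27 and 34 counts in LGR5-high, and 93 and 134 counts in LGR5-negative. ERBB4 had a log2 fold change of -2.08 (adjusted p = 0.00381), so that ERBB3 and ERBB4, the neuregulin receptors, were both lower. NRG1, which encodes neuregulin 1, had 33.8 and 17.6 CPM in LGR5-high, and 12.5 and 7.34 CPM in LGR5-negative. Pig 88R was above pig 95R in each population for NRG1, and the log2 fold change was 1.38 (adjusted p = 0.0302). Without the LGR5-high library of pig 88R or the LGR5-negative library of pig 95R, NRG1 was not called. NRG3, which encodes neuregulin 3, had 105 and 77 counts in LGR5-high, and 4 and 0 counts in LGR5-negative, close to the floor (adjusted p = 0.00344). NRG1 and NRG3 were thus called higher, and the neuregulin receptor genes ERBB3 and ERBB4 lower, in the same libraries. NRG3 passed the filter through its LGR5-high counts alone. With at least 10 counts required in every library NRG3 was not tested, and 1 gene of this list was higher. The opposite directions are therefore a description only. NRG2 and EPGN each had a log2 fold change of 0.44 (adjusted p = 0.061 and 0.344), and NRG4 one of -0.81 (adjusted p = 0.0927). With the pig as a replicate block NRG2 was called higher (adjusted p = 0.00235) and NRG4 lower (adjusted p = 0.0232), so that 3 of the 6 genes were higher and 2 lower. NRG2 was also called higher with library size only (adjusted p = 0.014). NRG4 overlaps FBXO22, which had between 1353 and 2186 counts, and its value is uncertain for that reason.

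Of the genes that release ligands or control their release, 6 of 10 tested were lower and 2 were higher in LGR5-high, beside 22% and 22.7% of all tested genes, and ADAM12 was too low to test. ADAM19 and ADAM8, metalloproteinases, had log2 fold changes of -2.97 and -2.72 (adjusted p = 0.00697 and 6.61e-04). RHBDF2, which encodes an inactive rhomboid that ADAM17 needs to mature, had a log2 fold change of -0.94 (adjusted p = 0.00126). TIMP3, an inhibitor of ADAM17 and other metalloproteinases, had 777 and 669 CPM in LGR5-high, and 146 and 129 CPM in LGR5-negative, with a log2 fold change of 2.39 (adjusted p = 1.02e-04). The other higher gene was ADAM10, the main protease for EGF and BTC, with a log2 fold change of 0.51. ADAM17, the main protease for AREG, HBEGF, TGFA and EREG, had 42.0 and 40.7 CPM in LGR5-high, and 60.2 and 61.1 CPM in LGR5-negative. Its log2 fold change was -0.55 (adjusted p = 0.00406), and RHBDF1 and FRMD8, which encode further partners of ADAM17, had -0.28 and -0.33. ADAM10, ADAM17, RHBDF1 and FRMD8 were singled out after their values had been seen. ADAM10 was not called without the LGR5-high library of pig 88R or without either LGR5-negative library. RHBDF1 and FRMD8 were not called without any 1 of the 4 libraries, nor with library size only, where 4 of 10 genes were lower and 2 higher.

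Of the 25 tested genes listed for attenuation or degradation of ERBB receptors, 5 were higher (20%) and 8 were lower (32%). The shares among all tested genes were 22.7% and 22%. The list also holds a gene that restrains CBL, UBASH3B, so these counts do not give a direction of receptor attenuation. LRIG1, a transmembrane protein that promotes ERBB receptor degradation and marks follicle stem cells in the mouse, had 127 and 120 CPM in LGR5-high, and 56.4 and 74.3 CPM in LGR5-negative. The log2 fold change of LRIG1 was 0.92 (adjusted p = 0.00394), and pigs 88R and 95R taken singly gave 1.17 and 0.69. LRIG3, SOCS5, PTPRK and LRRK1, named after their values were seen, were the other higher genes. Of these, LRIG3, SOCS5 and PTPRK were not called without the LGR5-high library of pig 88R, and LRIG3 and SOCS5 not without that of pig 95R, SOCS5 not without the LGR5-negative library of pig 88R and PTPRK not without that of pig 95R. This left 2 higher attenuators without the LGR5-high library of pig 88R and 3 without that of pig 95R. UBASH3B, which restrains the ubiquitin ligase CBL, had a log2 fold change of -1.79, and CBLC, a ubiquitin ligase of the CBL family, one of -1.52 (adjusted p = 0.00159 and 0.00276). SOCS3, a feedback inhibitor of cytokine signalling, had a log2 fold change of -1.11. The list thus included genes called in each direction, and ERRFI1, a family member, was called in the direction opposite to LRIG1. With library size only 7 were higher and 6 lower, and the median turned from -0.16 to 0.07.

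In the RAS-ERK relay, 6 of 20 tested genes were higher (30%) and 9 were lower (45%), beside 22.7% and 22% of all tested genes. The paralogs SHC1 and SHC2, adaptors of the receptor, were called in opposite directions. SHC2 and GAB2, another adaptor, had log2 fold changes of 2.96 and 2.51 (adjusted p = 0.00573 and 3.66e-04), while SHC1 had -1.09 (adjusted p = 2.86e-04). SHC2 was scarce, with 34 and 48 counts in LGR5-high and 3 and 6 counts in LGR5-negative, so it passed the filter through LGR5-high alone. With at least 10 counts required in every library SHC2 was not tested, and 5 genes of this list were higher. The contrast of SHC1 and SHC2 thus depends on the filter. GAB2 had 48.0 and 36.5 CPM in LGR5-high, and 8.24 and 6.55 CPM in LGR5-negative. KSR1, a scaffold of the kinase cascade, had a log2 fold change of -1.32. With library size only 6 genes of this list were higher and 5 lower. Without the LGR5-high library of pig 88R only 3 were higher, and without that of pig 95R only 5 were lower. In the PI3K, STAT and PLC branches, 2 of 15 tested genes were higher (13.3%) and 4 were lower (26.7%), beside the same 22.7% and 22%, and with library size only 5 were higher and 2 lower and the median turned from -0.10 to 0.12. PLCG1, a phospholipase that binds EGFR, had a log2 fold change of 0.44. STAT5A had a log2 fold change of -1.32, and PIK3CB, a catalytic PI3K subunit, one of -0.58. PIK3CB was not called without the LGR5-high library of pig 88R, where 1 gene of this list was lower. Without the LGR5-negative library of pig 95R 2 were lower, and without the LGR5-high library of pig 95R 1 was higher.

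Of the genes known to be induced by EGFR signalling, 5 of 21 tested were higher and 8 were lower, beside 22.7% and 22% of all tested genes. PTGS2, which encodes cyclooxygenase 2, FOSL1, a subunit of the AP-1 transcription factor, and PLAUR, the urokinase receptor, had log2 fold changes of -3.01, -2.50 and -2.21 (adjusted p = 4.36e-04, 6.29e-05 and 0.00218). PHLDA1 had a log2 fold change of 2.58 (adjusted p = 5.47e-04), and the other higher genes, named after their values were seen, were ETV4, IER3, DUSP6 and SPRED1. DUSP6 was not called without the LGR5-high library of pig 95R, nor SPRED1 without that of pig 88R. With library size only 7 were higher and 8 lower. Of the immediate-early genes that dissociation can raise, 11 of 19 tested were lower in LGR5-high and EGR2 was higher. Among all tested genes 22% were lower and 22.7% higher. The immediate-early genes summed to 20219 and 25086 CPM in LGR5-high and to 30178 and 36540 CPM in LGR5-negative. The lower immediate-early genes numbered 7 with library size only, 6 without the LGR5-high library of pig 88R and 15 with the pig as a replicate block. KLF4, SOCS3, ATF3 and KLF6 had log2 fold changes of -1.56, -1.11, -0.90 and -0.85. EGR2, which was named with FOS after the values were seen, lost its call without any 1 of the 4 libraries. FOS was not called, with 2345 and 3165 CPM in LGR5-high and 2426 and 3314 CPM in LGR5-negative. HBEGF to FOS was 5.25-fold and 4.55-fold higher in LGR5-negative in pigs 88R and 95R, and AREG to FOS was 3.33-fold and 3.03-fold higher. As FOS was not called, these ratios restate the HBEGF and AREG changes. Ratios to the lower immediate-early genes were not made. The part of the immediate-early genes in the lower HBEGF, AREG and ERRFI1 values was not tested.

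Marker sums of other cells also differed between the populations. The spinous and granular markers summed to 6697 and 6123 CPM in LGR5-high, and to 66944 and 57786 CPM in LGR5-negative. The dendritic cell markers summed to 16.5 and 12.7 CPM in LGR5-high, and to 188 and 272 CPM in LGR5-negative, and FLT3 was at 0 in the LGR5-high library of pig 95R. Both sums were higher in the LGR5-negative libraries without overlap, and their part in the lower ligand values and in ERRFI1 was not tested. Within the spinous and granular list LOR and IVL were not called. Other marker sums went the opposite way, among them those of smooth muscle and Merkel cells. The outer root sheath and bulge markers, which include LGR5, summed to 3206 and 4305 CPM in LGR5-high, and to 889 and 1546 CPM in LGR5-negative.

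**Figure D4:**
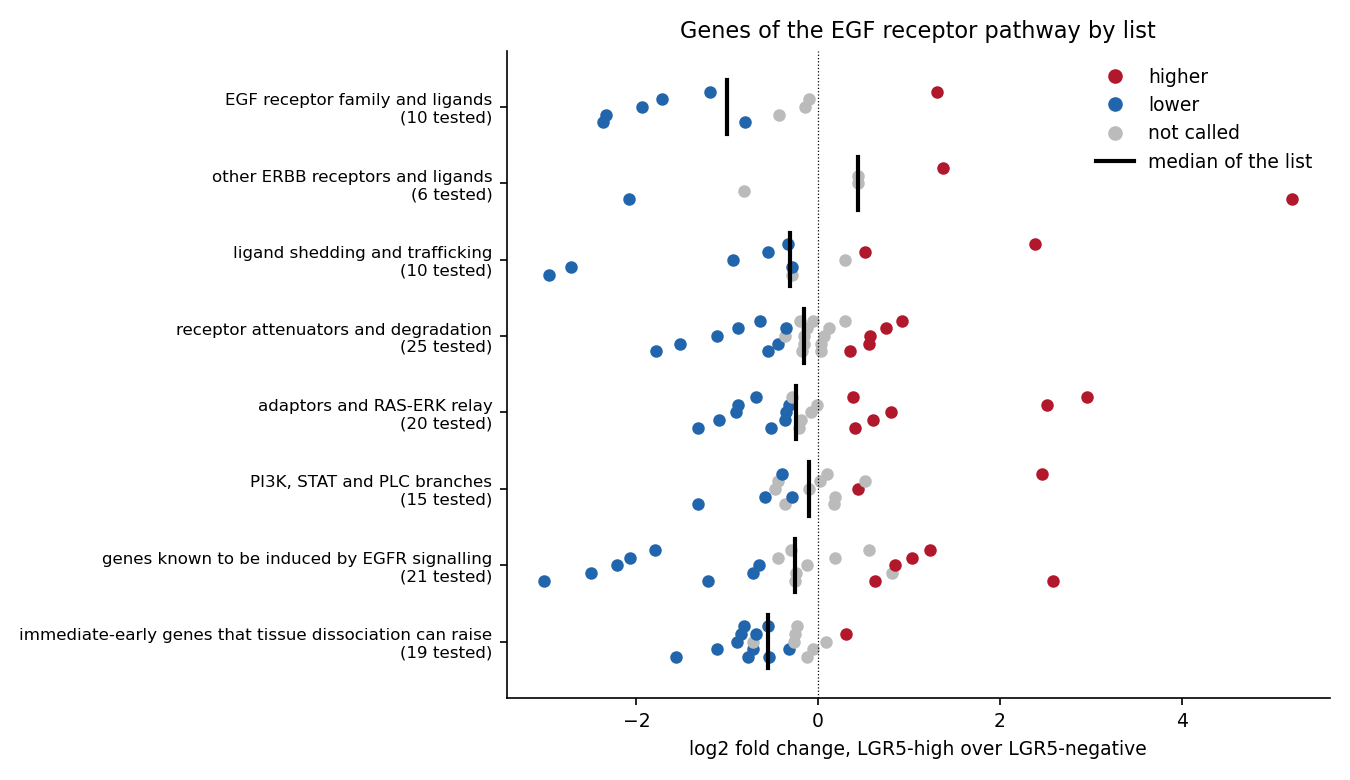
Log2 fold change, LGR5-high over LGR5-negative (x axis), of each tested gene of the family and of the 7 pathway lists (rows), with red and blue points for genes called higher and lower, grey points for genes not called and a black bar for the median of each row. The family median lies at -1.0, and the medians of the other lists lie between -0.56 and 0.44.

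By the distance between log2 CPM profiles centred over the 4 libraries, the 3 genes nearest to ERRFI1 were DLK2, LOC100620265 and OTUD1, at 0.0457, 0.0631 and 0.0703. The genes nearest to TGFA were LURAP1 and LOC110261665, at 0.109 and 0.121, followed by LOX. Of these 6 genes LOC110261665 was not called (adjusted p = 0.0557), and likeness over 4 libraries is given as a description only.

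**Figure D5:**
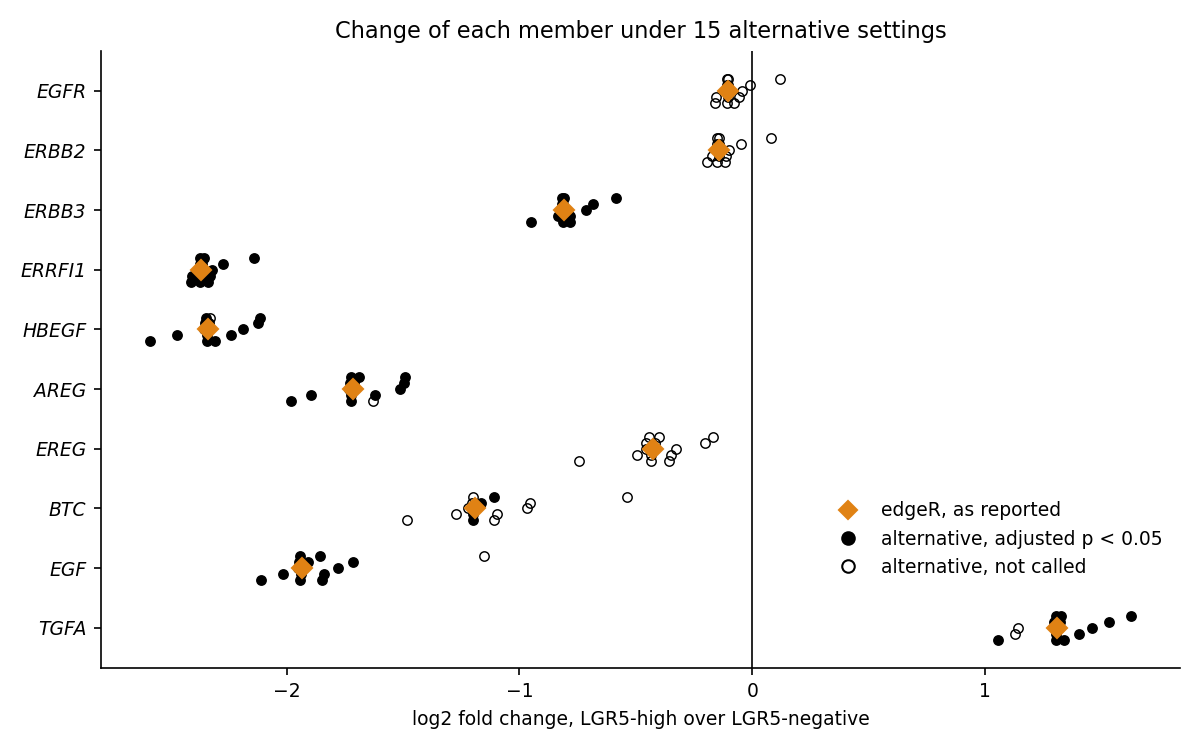
Log2 fold change, LGR5-high over LGR5-negative (x axis), of each family member as reported (diamond) and under 15 alternative fits (circles, filled where the adjusted p-value was under 0.05). TGFA lies to the right of 0 and ERBB3, ERRFI1, HBEGF, AREG, EREG, BTC and EGF to the left of 0 in all 15, whereas EGFR and ERBB2 lie on both sides.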

How the data were processed

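The 4 RNA libraries, an LGR5-high and an LGR5-negative one from each of 2 pigs, were grouped by their labels. Unnormalized read counts for each gene symbol are what the authors deposited, and the submitters' processing notes name Trimmomatic 0.36, STAR 2.5.2b and featureCounts of Subread 1.5.2. The genome build and strand setting are not given in the sources used here. The 1 entry without a name held between 0.36% and 0.626% of the counts of a library and was left out, after which totals lay between 30696803 and 32463362. All 29837 symbols matched the RefSeq table of Sscrofa11.1, which gave names and gene order. It holds no transcript lengths, so levels were not compared between genes.

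Counts were tested in R 4.3.3 with edgeR 4.0.16 (filterByExpr at a count of 10 and a total of 15, TMM scaling, and a 2-sided quasi-likelihood test on population alone, with Benjamini-Hochberg adjusted p-values under 0.05 called). The fit used edgeR's default prior count, and a prior count of 2 was used for the values of each pig. Standard errors were derived from the test statistic. A floor of 3 counts and the Poisson intervals cover counting error only. Same-numbered libraries came from the same animal, and across genes they deviated from their population means together (correlation 0.37), so the pig served as a replicate block in an alternative. Other alternatives were 3 scalings, 2 filters, DESeq2 1.42.0 with and without the block, limma-voom (limma 3.58.1), the Student test that the study's methods name on log2 CPM with a pseudocount of 1, a prior count of 2, a minimum absolute log2 fold change of 1, and leaving out each library. The tests were first tested on simulated data. Libraries of the same population differed by more than counting noise (chi-square per degree of freedom 16.1 and 18.1). Permuting 2 against 2 libraries exactly cannot bring a gene under the threshold, so this was not done.

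The members and the gene lists were chosen with earlier results of these data known. Named genes are the members, the other ERBB genes, LGR5, up to 4 called genes of each of the 7 pathway lists with the largest absolute change, and the 3 genes nearest in profile to the members with the largest increase and decrease. A gene that this rule would name is not reported here. KRT14, NR4A1, PIK3R3 and other listed genes that the table does not name were not used here. Plots were drawn with matplotlib 3.10.9.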

Additional observations from a re-analysis of the deposited data

How the results depend on the processing

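The direction of 8 of the 10 members was the same in all 15 alternative fits. With library size only, EGFR turned to 0.12 and ERBB2 to 0.0795, neither called. ERRFI1 was called in all 15, of which the prior count of 2 keeps the p-values of the reported test by construction. With the replicate block 1 member was higher and 6 were lower, as in the reported test, and no member gained or lost a call. A minimum absolute log2 fold change of 1, which is not among the 15 fits, left 1 member higher and 5 lower. ERBB3, at -0.81 in the reported test, falls short of that minimum. The Student test called 0 members higher and 1 lower, with 6 of the 10 at an unadjusted p-value under 0.05. Under it ERBB3 had -0.81, AREG -1.63, HBEGF -2.33, EGF -1.15, BTC -0.54 and TGFA 1.13, with adjusted p-values between 0.0589 and 0.126. BTC also lost its call with upper quartile scaling (-1.10), library size only (-0.97), all genes with at least 1 count (-1.20), DESeq2 (-1.20) and DESeq2 with the replicate block (-1.22). Leaving out each library gave between -1.48 and -0.95 for BTC, between 1.05 and 1.62 for TGFA, and between 0 and 1 members higher. The cause of these losses was not tested, and for BTC the low counts limit what can be shown.

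The 7 pathway lists together, with each gene counted once, gave 23 higher and 46 lower, against 4 and 9 with the Student test and 9 and 16 with a minimum absolute log2 fold change of 1. Leaving out each library gave between 13 and 20 higher and between 30 and 43 lower. Of all tested genes, 3631 were higher and 3508 lower, against 5473 and 2328 with library size only, 544 and 502 with the Student test, and 2339 and 1505 with the minimum change. Leaving out each library gave between 2292 and 3141 higher and between 2165 and 2928 lower.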
